A study of Mus musculus with 4 samples.

Results

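The genes of the proteasome were followed in Th2 cells, the CD4 helper T cells that make IL-4, IL-5 and IL-13, with and without Menin. Members were all symbols made of Psm, a letter from a to g and a number, except Psmb8, Psmb9 and Psmb10, the catalytic genes of the immunoproteasome. The rule matched 46 of the 23283 symbols with a value, and 44 of them had a mean of at least 1 FPKM over the 4 libraries. FPKM counts read fragments per kilobase of transcript, scaled to the size of the library, so levels can be set side by side between genes. The study held 4 RNA sequencing libraries from C57BL/6 mice, 1 in each group, and addressed what Menin, a subunit of Trithorax group chromatin complexes, does in these cells.

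The groups were wild type (WT) and Menin knockout (KO) cells from the spleen, each after 5 days and after a longer culture labelled 3 weeks. All 4 cultures began with 5 days in IL-2 (15 ng/ml) plus IL-4 (10 ng/ml). The longer culture then had 2 days with no added cytokine and 5 days on plate-bound T cell receptor antibody with IL-2 and an IL-4 blocking antibody, steps that together are shorter than 3 weeks. The sources used here do not give how Menin was removed, the age of the mice or any pooling of animals. Because each group was 1 library, no difference below has a replicate check, no test was made and no p-value is given.

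The proteasome is the protease that degrades proteins tagged with ubiquitin. Its 20S core is a barrel of alpha and beta subunits, with the catalytic sites on 3 of the beta subunits, and its 19S cap recognises ubiquitin, unfolds the substrate and feeds it into the core. Dedicated chaperones assemble both parts, and other activators can replace the cap. In T cells the catalytic subunits are partly exchanged for the interferon-inducible immunoproteasome subunits, which alter the peptides supplied to MHC class I molecules.

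Men1, the gene of Menin, was measured in WT at 32.8 FPKM and in KO at 10.3 FPKM at 5 days, and at 25.4 and 5.88 FPKM at 3 weeks, a direction that goes with the labels. The cells carried RNA of T cell genes, and the 4 T cell markers found summed to 890, 1107, 950 and 1878 FPKM in WT 5-day, KO 5-day, WT 3-week and KO 3-week. Cd3g, a chain of the T cell receptor complex, stood at 389 and 1028 FPKM in WT and KO at 3 weeks. The 5 Th2 markers summed to 82.9, 86.8, 331 and 99.1 FPKM, and all 5 were at least 2-fold lower in KO at 3 weeks. Gata3, the Th2 regulator gene, stood there at 93.8 and 45.9 FPKM, and the cytokine genes Il4, Il5 and Il13 at 21.9 and 6.395, 95.1 and 22.4, and 105 and 19.1 FPKM. The 5 B cell markers summed to 1.62, 2.72, 0.155 and 0.278 FPKM, with Cd79b the highest at 5 days (1.35 and 1.68 FPKM) and Pax5 listed at 0 in all 4 libraries. The 4 mast cell and basophil markers summed to 14.6, 25.04, 10.5 and 18.3 FPKM, with Cpa3 at 10.2 to 21.6 FPKM and Mcpt8 at 0.266 and 7.93 FPKM in WT and KO at 3 weeks. Of 5 natural killer cell markers, 2, 2, 3 and 1 were listed at 0 in WT 5-day, KO 5-day, WT 3-week and KO 3-week, and their summed level was 0.869, 3.04, 0.346 and 4.66 FPKM. The 6 myeloid and dendritic markers found summed to 6.48, 64.8, 0.460 and 119 FPKM in the same order, with Fcer1g at 6.11, 61.3, 0.186 and 104 FPKM. Itgax stood at 0.0501, 2.45, 0.0497 and 8.63 FPKM, Itgam at 0.203, 0.392, 0.0283 and 4.75, and Cd14 at 0, 0.509, 0.0978 and 2.03. Lyz2 stood at 0.112, 0.154, 0.0989 and 0 FPKM, and Csf1r at 0.013, 0.012, 0 and 0. The part of these markers in the results below was not tested. Depth inferred from the steps of low values was 20.7 to 23.5 M reads, and intervals quoted below are 95% counting intervals (exact Clopper-Pearson) on the reads it implies, which leave out all variation between cultures.

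Proteasome RNA was lower in KO than in WT at both times, and further below WT in the longer culture. Summed over the 44 kept genes, FPKM was 3593 in WT and 3112 in KO at 5 days, and 3920 in WT and 2784 in KO at 3 weeks. These sums made up 0.769%, 0.656%, 0.841% and 0.582% of all FPKM in the same order. WT 3-week was the highest library and KO 3-week the lowest. In bulk RNA fewer cells of a type and less RNA per cell cannot be told apart.

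At 5 days 42 of the 44 genes had a lower value in KO, where 53.6% of all 10973 compared genes did. With upper-quartile scaling the count was 40 (48.2% of all genes). Ratios were taken as log2((KO + 1)/(WT + 1)) of FPKM, and the median over the 44 genes was -0.26, against -0.02 over all compared genes. A log2 ratio of -0.32 or lower, called lower by 0.32 or more in what follows, was held by 8 of the 44 (10.9% of all genes). None stood higher by 0.32 or more (14.5% of all genes). The count of 8 was 6 with upper-quartile scaling (8.99% of all genes) and 12 with the same FPKM sum in each library (12.2% of all genes). Lower by at least 1.5-fold was 1 gene (2.71% of all genes), the assembly chaperone Psmg1. The counting interval of the KO to WT ratio lay below 100% for 34 genes and above it for 0. The same count was not made over all genes, so no background stands beside it.

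At 3 weeks 43 of the 44 genes had a lower value in KO (55.8% of all genes). The count was 42 with median-of-ratios scaling (52.3% of all genes) and 38 with upper-quartile scaling (47.3% of all genes). The exception as deposited was the activator gene Psme4, and Psmg4, Psma1, Psmd10, Psmd8 and Psme2 changed side with upper-quartile scaling. The median over the 44 genes was -0.54, against -0.08 over all genes. Lower by 0.32 or more were 33 (34.6% of all genes), lower by at least 1.5-fold 17 (20.8% of all genes) and by at least 2-fold 2 (8.19% of all genes). None stood higher by 0.32 or more (24.5% of all genes). The count of 33 was 31 with median-of-ratios scaling (31.6% of all genes) and 24 with upper-quartile scaling (27.7% of all genes). These counts use FPKM + 1, so Psmc3ip and Psmd1, at 49.8% and 66.4% of WT by FPKM alone, fall just short of 2-fold and 1.5-fold. The count of 17 was 7 with upper-quartile scaling, which moved the median of all genes from -0.08 to 0.03. The distance between the members' median and that of all genes was -0.45 as deposited and -0.44 with that scaling.

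The members also lay close together. Their middle 50% spanned 0.35 on the log2 scale at 3 weeks, where that of all compared genes spanned 0.80, and at 5 days the spans were 0.19 and 0.35. Few members were far below WT, and the share of them beyond 2-fold was below the background. The 2 sets are not matched for level: all genes reach down to a mean of 1 FPKM, the members to 10.4 FPKM. No span was taken over genes of like level.

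**Figure D1:**
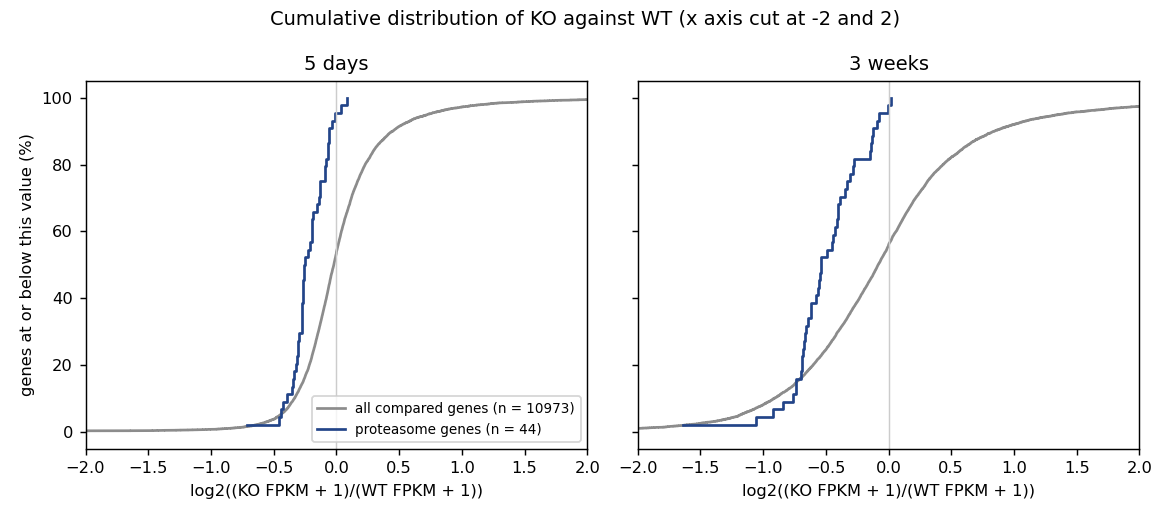
Cumulative share of genes (vertical axis, %) by log2((KO FPKM + 1)/(WT FPKM + 1)) (horizontal axis) at 5 days and 3 weeks, for the 44 proteasome genes (blue) and all 10973 compared genes (grey). The blue curve lies left of the grey one over most of its height at both times, with medians of -0.26 and -0.54, and is steeper.

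The 7 kept alpha subunit genes, which form the outer rings and the gate of the core, stood at 33.1 to 199 FPKM in WT 5-day. Psma4 stood at 105 FPKM in WT and 77.4 in KO at 5 days, and at 122 and 75.8 FPKM at 3 weeks, which is 73.5% of WT (68.9% to 78.4%) and then 62.0% (58.2% to 65.9%). Psma2 stood at 112 and 92.6 FPKM and then at 136 and 85.4 FPKM, 62.8% of WT at 3 weeks. Psma7, the highest of the ring, stood at 199 and 174 FPKM and then at 210 and 158 FPKM. In these genes both KO libraries lay below both WT libraries. Psma1 was the exception of the ring, at 140 and 144 FPKM at 5 days and at 150 and 141 FPKM at 3 weeks, where KO was 93.8% of WT (89.3% to 98.4%). The ring's median was -0.27 at 5 days and -0.57 at 3 weeks.

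All 7 kept beta subunit genes, those of the inner rings, were lower in KO at each time (53.6% and 55.8% of all genes). Their medians were -0.19 and -0.56. The 3 that carry the constitutive catalytic sites were alike in level. Psmb5, with the chymotrypsin-like site, stood at 106 FPKM in WT and 92.2 in KO at 5 days, and at 109 and 69.4 FPKM at 3 weeks. Psmb6, with the caspase-like site, stood at 108 and 97.7 FPKM and then at 108 and 80.2 FPKM. Psmb7, with the trypsin-like site, stood at 121 and 95.1 FPKM and then at 128 and 82.8 FPKM. KO at 3 weeks was the lowest library for all 3, at 63.6%, 74.2% and 65.0% of WT. Of the other beta genes, Psmb2 was furthest from WT at 3 weeks (207 and 128 FPKM, 61.7%) and Psmb1 nearest (184 and 148 FPKM, 80.7%). Psmb4, 1 of the 3 highest members by mean level, stood at 199 and 171 FPKM at 5 days and at 192 and 147 FPKM at 3 weeks.

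The 6 ATPase genes of the 19S base, whose proteins form the ring that unfolds substrates, were lower in KO at both times in 6 of 6 cases, with medians of -0.27 and -0.61. All 6 were lower by 0.32 or more at 3 weeks (34.6% of all genes). Psmc6 stood at 76.9 and 58.4 FPKM at 5 days and at 81.3 and 48.3 FPKM at 3 weeks, 76.0% and 59.4% of WT. Psmc2 was already at 74.2% of WT at 5 days (74.8 and 55.5 FPKM) and at 68.2% at 3 weeks (76.9 and 52.5 FPKM). Psmc4 was nearest to WT at 3 weeks, at 99.4 and 74.9 FPKM.

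Of the other base genes, Psmd1 and Psmd2 encode the large scaffold subunits and Psmd4 a ubiquitin receptor. Psmd1 stood at 61.5 and 50.7 FPKM at 5 days and at 65.0 and 43.1 FPKM at 3 weeks, 66.4% of WT. Psmd4 stood at 100 and 91.5 FPKM and then at 101 and 91.0 FPKM, so that KO was 91.2% of WT at 5 days and 90.4% at 3 weeks. It lay nearer to WT at 3 weeks than the other base genes, and the distance was alike at both times.

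All 8 genes of the 19S lid had lower values in KO at each time (53.6% and 55.8% of all genes). Their medians were -0.26 and -0.49. Psmd7 was furthest from WT at 3 weeks, at 88.7 and 52.6 FPKM, 59.3% of WT (55.8% to 63.1%), after 71.9 and 59.5 FPKM at 5 days. Psmd14, the deubiquitinase that removes ubiquitin chains from the substrate, stood at 47.8 and 40.7 FPKM and then at 53.0 and 38.6 FPKM, 72.9% of WT. Psmd13 differed little between genotypes at 5 days (59.7 and 58.4 FPKM) and stood at 73.0 and 57.0 FPKM at 3 weeks. Psmd8 was the lid gene nearest to WT in the longer culture, at 117 and 102 FPKM and then at 109 and 99.3 FPKM, 91.4% of WT. Over all 31 subunit genes of the core and cap, 27 were lower by 0.32 or more at 3 weeks (34.6% of all genes). The 4 that were not were Psma1, Psmb1, Psmd4 and Psmd8. In these 4 the counting interval still lay wholly below the WT level.

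**Figure D2:**
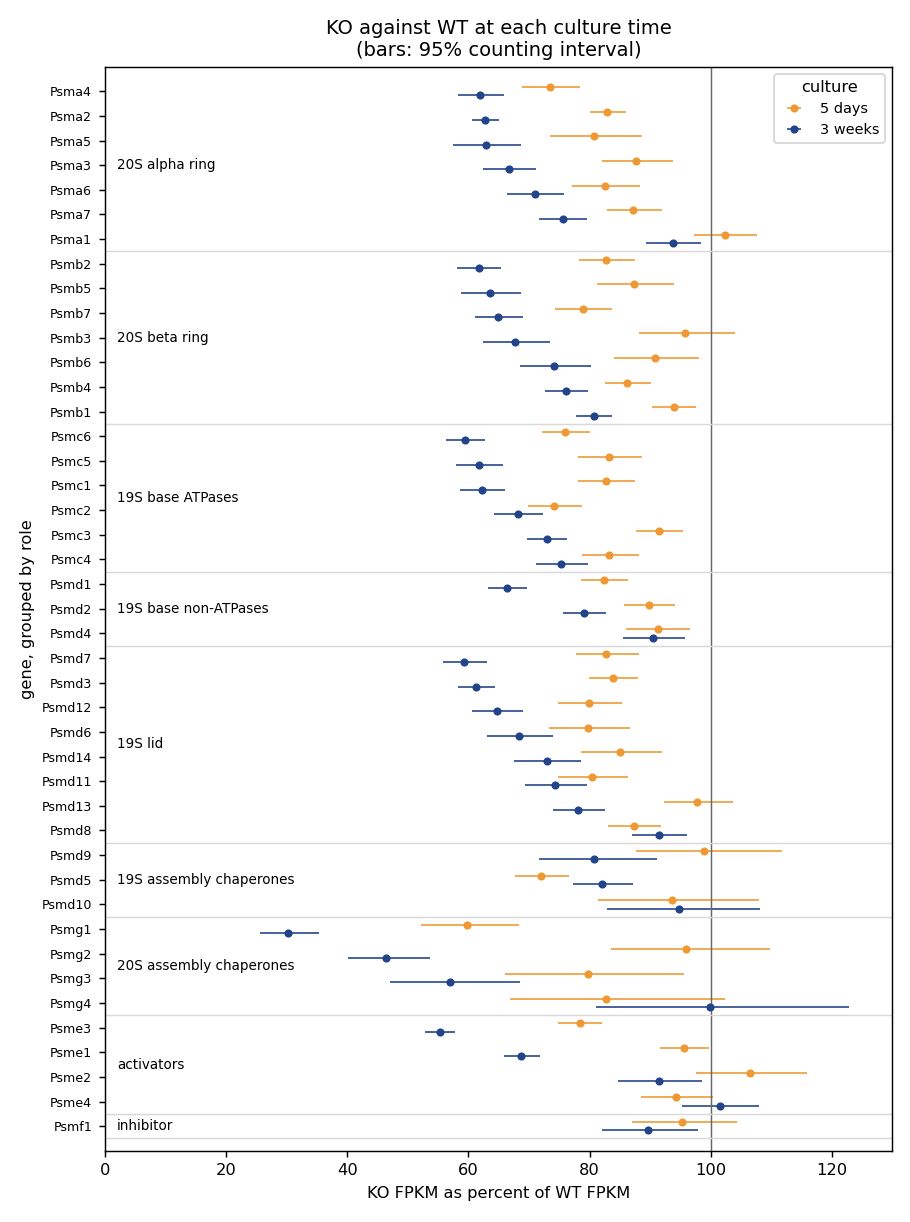
KO FPKM as percent of WT FPKM (horizontal axis) for 43 proteasome genes grouped by role (vertical axis), at 5 days (orange) and 3 weeks (blue), with 95% counting intervals as bars. Most blue points lie left of their orange partner; Psmg1, at 30.2%, is the lowest, and Psme4 and Psmg4 lie near 100% at 3 weeks.

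The chaperones that assemble the 20S core held the lowest ratios. Psmg1 and Psmg2 encode partners that act together on the alpha ring, and Psmg3 and Psmg4 encode a further pair. Psmg1 stood at 31.6 FPKM in WT and 18.9 in KO at 5 days, and at 35.2 and 10.6 FPKM at 3 weeks. That is 59.8% of WT (52.2% to 68.4%) and then 30.2% (25.6% to 35.4%), the lowest of all members at both times. Psmg1 lies on chromosome 16, from 95979933 to 95990960 (GRCm38).

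Its partner Psmg2 was near WT at 5 days, at 23.5 and 22.6 FPKM, and stood at 31.1 and 14.5 FPKM at 3 weeks, 46.5% of WT (40.1% to 53.7%). Psmg3 stood at 17.9 and 14.3 FPKM and then at 20.6 and 11.8 FPKM, 57.0% of WT. Psmg4 did not go with them: it stood at 25.9 and 21.4 FPKM at 5 days and at 23.6 FPKM in both libraries at 3 weeks, with an interval of 81.1% to 123% of WT. The ratio of Psmg3 to Psmg4 FPKM was 0.873 in WT 3-week and 0.499 in KO 3-week. These 4 genes rest on 172 to 699 implied reads each per library, fewer than most subunit genes, and their intervals are wider. With upper-quartile scaling the number of members at least 1.5-fold lower was smaller, as given above, but Psmg1 stayed the lowest.

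The 3 assembly chaperone genes of the 19S cap stood closer to WT. Psmd5 stood at 26.6 and 19.1 FPKM at 5 days, 72.0% of WT, and at 25.4 and 20.9 FPKM at 3 weeks, 82.1%, so it was nearer to WT in the longer culture. Psmd10, which encodes gankyrin, stood at 15.6 and 14.6 FPKM and then at 16.8 and 15.9 FPKM, with an interval that held 100% at both times. Psmd9, the kept member with the lowest mean level, stood at 10.5 and 10.4 FPKM and then at 11.5 and 9.26 FPKM.

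The activator genes differed among themselves. Psme1 and Psme2 encode the interferon-inducible PA28 cap, Psme3 its nuclear relative and Psme4 the activator PA200. Psme1, the highest member by mean level, stood at 224 and 214 FPKM at 5 days and at 258 and 178 FPKM at 3 weeks, 68.8% of WT (65.9% to 71.8%). Psme2 stood at 62.9 and 67.0 FPKM and then at 83.8 and 76.7 FPKM, 91.4% of WT (84.7% to 98.6%). The ratio of Psme1 to Psme2 was 3.57 in WT and 3.20 in KO at 5 days, and 3.08 and 2.32 at 3 weeks.

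Psme3 was the activator gene furthest below WT, at 78.2 and 61.3 FPKM and then at 102 and 56.1 FPKM, 55.3% of WT (52.9% to 57.8%) at 3 weeks. Psme4 stood at 15.0 and 14.1 FPKM and then at 14.1 and 14.3 FPKM. The inhibitor gene Psmf1, which encodes PI31, stood at 12.5 and 11.9 FPKM and then at 13.3 and 11.9 FPKM. Both genes varied little over the 4 libraries, on 924 or more implied reads each per library.

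The rule also matched Psmc3ip, which encodes a recombination protein that binds Psmc3 and is no proteasome subunit. It stood at 15.5 and 11.9 FPKM at 5 days and at 15.3 and 7.63 FPKM at 3 weeks, 49.8% of WT. The filter left out 2 matched genes, the testis subunit Psma8 and the thymus subunit Psmb11, at mean levels of 0.0154 and 0.00592 FPKM. The members just inside the filter were Psmd9, Psmf1 and Psmc3ip, with means of 10.4, 12.4 and 12.6 FPKM, so no kept member lay near the threshold. The lowest value of a kept member in any library was 7.63 FPKM.

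**Figure D3:**
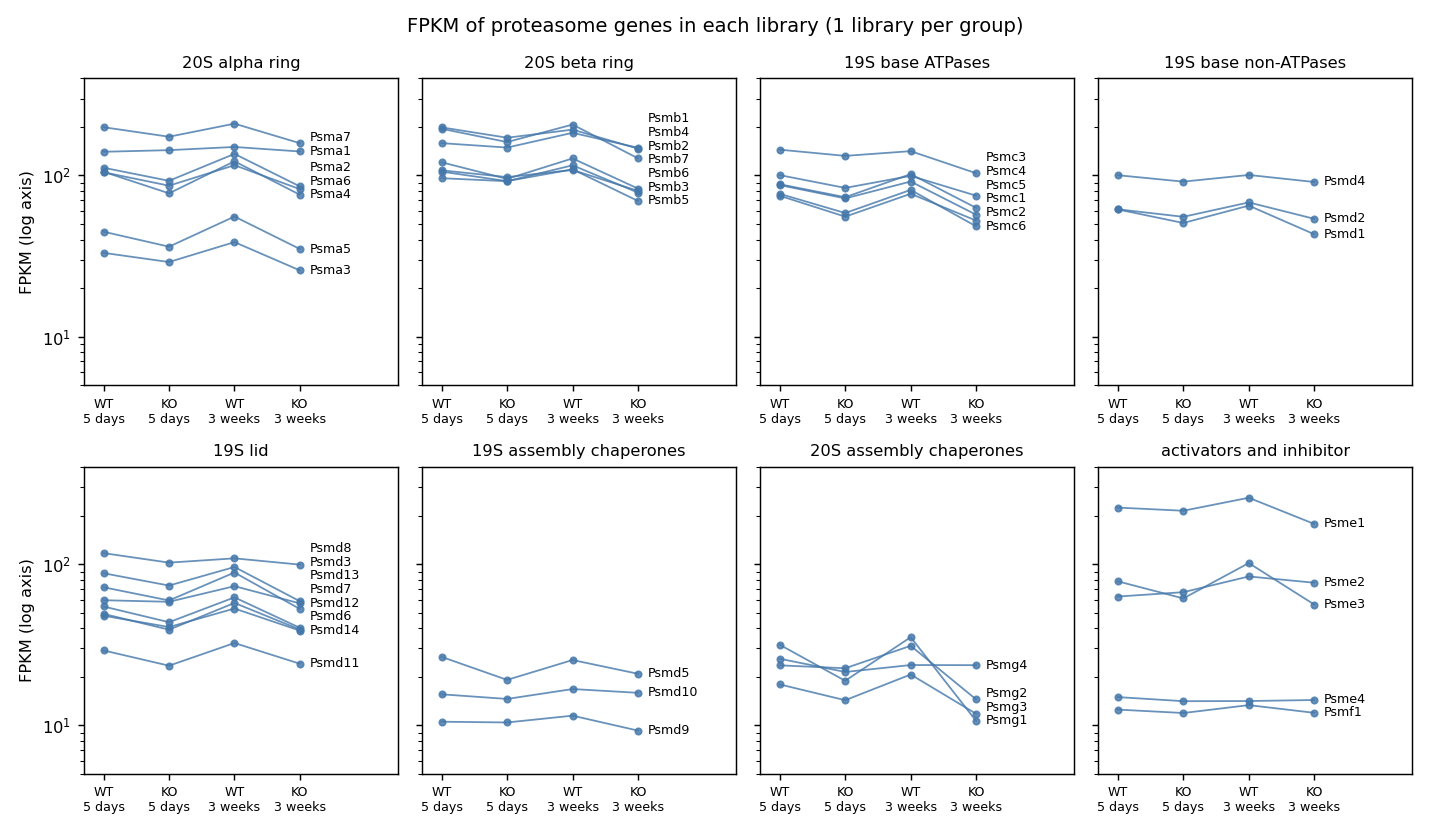
FPKM (vertical log axis) of 43 proteasome genes in the 4 libraries (horizontal axis), 1 line per gene and 1 panel per role, with a single library behind each point. Lines mostly run parallel with a peak in WT 3-week and a low in KO 3-week; Psmg1, Psmg2 and Psmg3 run below Psmg4 in KO 3-week, at 10.6, 14.5 and 11.8 against 23.6 FPKM.

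Levels were uneven among core subunits, most of which enter the complex in equal copies. Psmb5, Psmb6 and Psmb7 are the exception, since immunoproteasome subunits can take their places. In WT 5-day the 14 core subunit genes ran from 33.1 FPKM (Psma3) to 199 FPKM (Psma7), with a coefficient of variation of 41.9%, and in KO 3-week from 25.7 to 158 FPKM with 44.1%. The order of levels was much alike in all libraries: over the 44 genes, which are not replicates, Spearman's rho was 0.991 between the 5-day libraries and 0.965 between the 3-week libraries.

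The promoters of 37 of the 44 kept genes were matched by symbol to 40 windows in RefSeq (GRCm38.p6), each from 250 bases before to 50 after a start site. The letters of a core that ETS family factors recognise, CCGGAAG on either strand, stood in 16 of the 40 windows (40%). Over all 32851 windows the share was 8.86%, and over the 9917 windows of compared genes 18.9%. The core of the antioxidant response element, TGACNNNGC on either strand, the kind of site through which NRF1 acts on proteasome genes, stood in 6 of the 40 (15%), against 12.4% and 14.6%. The CCAAT box, searched as CCAAT on either strand, stood in 13 (32.5%, against 37.4% and 38.2%). GAAANNGAA, a core of interferon response elements, stood in 7 (17.5%, against 8.56% and 7.11%). Matches of different motifs were counted independently of overlap. At 3 weeks the median log2 ratio was -0.54 in the 15 genes with the ETS core and -0.42 in the 22 without it. The genes with it ran from -1.64 (Psmg1) to 0.02, and those without it from -0.69 to -0.003. A match is only a run of letters, and no binding was measured.

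To show the promoters at both ends of the range, 120 bases upstream of the start are given 5′ to 3′ on the gene's strand for 3 genes among the lowest ratios at 3 weeks and for the 3 with the highest, and for the catalytic genes Psmb5 and Psmb6. Each run ends before the GENCODE start of the gene where that lies upstream of the RefSeq start. Capitals mark whole matches to CCGGAAG or TGACNNNGC in the run. Psmg1 (chr16:95990961-95991080, minus strand), Psme3 (chr11:101316093-101316212, plus) and Psmg3 (chr5:139826895-139827014, minus) were the low genes. Psmd10 (chrX:140956729-140956848, minus), Psmg4 (chr13:34162844-34162963, plus) and Psme4 (chr11:30771606-30771725, plus) were the high ones. Psmb5 lies at chr14:54618023-54618142 (minus) and Psmb6 at chr11:70525237-70525356 (plus).
Psmg1: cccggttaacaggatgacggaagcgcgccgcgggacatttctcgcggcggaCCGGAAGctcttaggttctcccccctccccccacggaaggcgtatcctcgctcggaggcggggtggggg
Psme3: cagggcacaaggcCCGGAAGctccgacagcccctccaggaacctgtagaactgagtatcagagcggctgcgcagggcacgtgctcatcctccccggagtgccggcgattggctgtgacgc
Psmg3: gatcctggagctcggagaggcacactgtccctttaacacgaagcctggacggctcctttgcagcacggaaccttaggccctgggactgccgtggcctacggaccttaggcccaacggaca
Psmd10: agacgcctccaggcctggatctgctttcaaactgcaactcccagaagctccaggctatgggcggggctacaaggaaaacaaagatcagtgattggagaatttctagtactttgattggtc
Psmg4: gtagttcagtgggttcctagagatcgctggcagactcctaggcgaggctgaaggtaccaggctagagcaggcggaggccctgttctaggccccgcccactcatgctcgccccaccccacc
Psme4: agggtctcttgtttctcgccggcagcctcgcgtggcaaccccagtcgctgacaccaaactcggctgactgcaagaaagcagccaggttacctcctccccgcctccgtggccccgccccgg
Psmb5: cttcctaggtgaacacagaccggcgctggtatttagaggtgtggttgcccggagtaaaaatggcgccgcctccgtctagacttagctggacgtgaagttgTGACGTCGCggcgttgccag
Psmb6: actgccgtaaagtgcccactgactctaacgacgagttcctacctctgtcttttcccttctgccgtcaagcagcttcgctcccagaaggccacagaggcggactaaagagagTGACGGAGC
Psmg1 and Psme3 hold the ETS core in these runs, and Psmb5 and Psmb6 the antioxidant core. In Psmb6 it directly precedes the start site. Psmg3 has the ETS core only after its start, at position 5. Psme4 has an ETS core that begins at position -53, inside the run shown, and extends past its end. Its antioxidant core, at position -7, lies nearer to the start than the run.

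The genotype log2 ratio was lower at 3 weeks than at 5 days in 39 of the 44 genes (57.4% of all genes), with a median of -0.28 against -0.08 over all genes. The difference between the times was -0.32 or lower in 18 (29.7% of all genes). It was largest in Psmg2, whose KO level went from 95.9% to 46.5% of WT, and then in Psmg1 (-0.92). The genes with a higher ratio at 3 weeks were Psmg4 (0.26), Psmd5 (0.18), Psme4 (0.10), Psmd8 (0.07) and Psmd10 (0.02). Lower in KO at both times were 41 of 44 genes, as were 42.8% of all compared genes, and these genotype comparisons share no library.

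Set by culture time, the members' medians differed in direction between WT and KO cells. These contrasts reuse the libraries above and are the same values seen the other way. In WT, 36 of 44 genes were higher at 3 weeks than at 5 days (51.9% of all genes), with a median of 0.12 against 0.01 over all genes, and 3 were higher by 0.32 or more (17% of all genes), namely Psme2, Psmg2 and Psme3. In KO, 36 of 44 were lower at 3 weeks (56.8% of all genes), with a median of -0.13 against -0.06, and 7 were lower by 0.32 or more (26.5% of all genes). The KO count of lower genes was 27 with median-of-ratios scaling (49.7% of all genes) and 28 with upper-quartile scaling (49.9% of all genes). The count of 7 was 4 with either (22.2% and 22.4% of all genes). In both genotypes the share of members that moved this far was below that of all genes. The members' median lay 0.11 above that of all genes in WT and -0.07 from it in KO.

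The 3 immunoproteasome genes, which are no members, held higher KO to WT ratios than their constitutive counterparts at both times. Psmb8, which replaces Psmb5, stood at 305 and 328 FPKM at 5 days and at 376 and 289 FPKM at 3 weeks. Psmb9, which replaces Psmb6, stood at 138 and 143 FPKM and then at 182 and 145 FPKM, and Psmb10, which replaces Psmb7, at 66.3 and 83.2 FPKM and then at 80.7 and 78.8 FPKM. At 5 days all 3 were higher in KO by value, and at 3 weeks all 3 were lower. The FPKM ratio of each immunoproteasome gene to its counterpart was higher in KO at both times. Psmb8 to Psmb5 was 2.89 in WT (2.73 to 3.05) and 3.56 in KO (3.37 to 3.76) at 5 days, and 3.45 (3.28 to 3.63) and 4.16 (3.90 to 4.44) at 3 weeks. Psmb10 to Psmb7 was 0.549 and 0.875 and then 0.633 and 0.951. Psmb9 to Psmb6 differed least, at 1.28 and 1.47 and then 1.68 and 1.81, and at 3 weeks its counting intervals overlapped. For the sum of the 3 genes over the sum of the counterparts, KO was 1.28 times WT at 5 days and 1.19 times WT at 3 weeks.

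**Figure D4:**
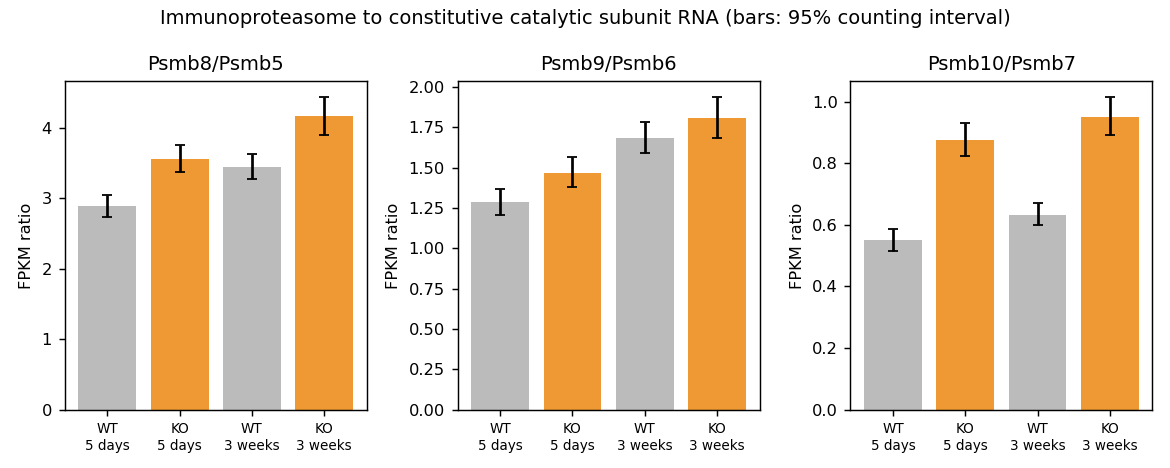
FPKM ratio (vertical axis, from 0) of each immunoproteasome catalytic gene to its constitutive counterpart in the 4 libraries (WT grey, KO orange), with 95% counting intervals. KO lies above WT at the same time in all 3 panels, most in Psmb10/Psmb7, at 0.875 against 0.549 and 0.951 against 0.633.

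Genes of the class I presentation route that the immunoproteasome serves were mixed. Of 13 compared genes 9 were higher (43.9% of all genes) and 4 lower in KO at 3 weeks (median 0.34). The chaperone gene Canx was furthest below WT, at 151 and 86.2 FPKM, 57.0% of WT. On the higher side stood B2m, the light chain of class I molecules, at 4741 and 6709 FPKM and the peptide transporter gene Tap1 at 109 and 137 FPKM. All 17 interferon-stimulated genes compared were higher by 0.32 or more at 3 weeks (24.5% of all genes), with a median of 1.68. Rtp4, Rsad2, Oasl1, Oasl2 and Mx2 passed the filter only through their KO 3-week values, so the filter favoured a higher KO value in them. Summed FPKM of the 22 genes listed, with no filter, was 223 in WT and 595 in KO at 3 weeks. At 5 days 13 of the 17 were higher (46.1% of all genes) and 4 lower by value (median 0.21). The part of this shift in the immunoproteasome values was not tested.

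Proteasome partners without a Psm symbol stood lower by a like amount. Of 9 compared genes 9 were lower in KO at each time, with medians of -0.26 and -0.47. At 3 weeks 8 were lower by 0.32 or more (34.6% of all genes). Pomp, the maturation factor of the core, stood at 192 and 160 FPKM and then at 212 and 146 FPKM, 69.1% of WT. Adrm1, a ubiquitin receptor of the cap, stood at 48.0 and 41.4 FPKM and then at 55.1 and 38.2 FPKM. Uchl5, the deubiquitinase that binds it, was furthest from WT, at 31.5 and 24.8 FPKM and then at 38.4 and 16.7 FPKM, 43.5% of WT (39.3% to 48.2%). Usp14, the other cap-bound deubiquitinase of the list, stood at 19.3 and 11.4 FPKM at 3 weeks. Sem1 was found under its older symbol Shfm1, at 446 and 332 FPKM at 3 weeks.

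Upstream of the proteasome the picture was mixed. Of 11 compared genes for ubiquitin, its activating enzymes and shuttles, 7 were lower (55.8% of all genes) and 4 higher at 3 weeks. Their median KO to WT log2 ratio was -0.33. The activating enzyme gene Uba1 stood at 187 and 122 FPKM and the shuttle gene Ubqln4 at 26.0 and 13.9 FPKM. The NRF1 pathway raises proteasome gene expression when the proteasome is impaired. Of its 12 genes listed, 8 were higher (43.9% of all genes) and 4 lower at 3 weeks (median 0.38, and -0.03 at 5 days). The 8 were Nfe2l1, Nfe2l2, Mafk, Mafg, Maff, Syvn1, Sel1l and Fbxw7. The 4 were Ddi2, Keap1, Ngly1 and Vcp, with log2 ratios of -0.11, -0.09, -0.09 and -0.08. The list median is no measure of NRF1 activity, which was not tested. Nfe2l1, which encodes NRF1, stood at 26.3 and 25.2 FPKM at 5 days and at 23.5 and 30.2 FPKM at 3 weeks. Nfe2l2, which encodes its relative NRF2, stood at 19.9 and 18.7 FPKM and then at 9.85 and 22.1 FPKM, and WT 3-week was the library apart. RNA levels say nothing of NRF1 processing, which is set on the protein. The 8 cofactors of the unfoldase p97 had a median of -0.10 at 3 weeks, with Ubxn6 the highest at 22.8 and 34.5 FPKM.

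Other large complexes and the cell cycle list were measured for comparison. The CCT chaperonin, the ring complex that folds actin and tubulin, was further below WT than the proteasome. At each time 8 of its 8 genes were lower (53.6% and 55.8% of all genes), with medians of -0.36 and -1.04. Of 74 genes of the respiratory chain and ATP synthase 64 were lower at 3 weeks (55.8% of all genes), with a median of -0.37. Of 77 ribosomal protein genes 47 were lower, near the share of all genes, with a median of -0.05 against -0.08 over all genes. Of 24 cell cycle genes 24 were lower at 3 weeks (55.8% of all genes), with medians of -0.15 at 5 days and -0.98 at 3 weeks. Their summed FPKM at 3 weeks was 2518 in WT and 1256 in KO. These lists differed beside the proteasome genes, and their part in the proteasome values was not tested. No difference between lists was tested.

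**Figure D5:**
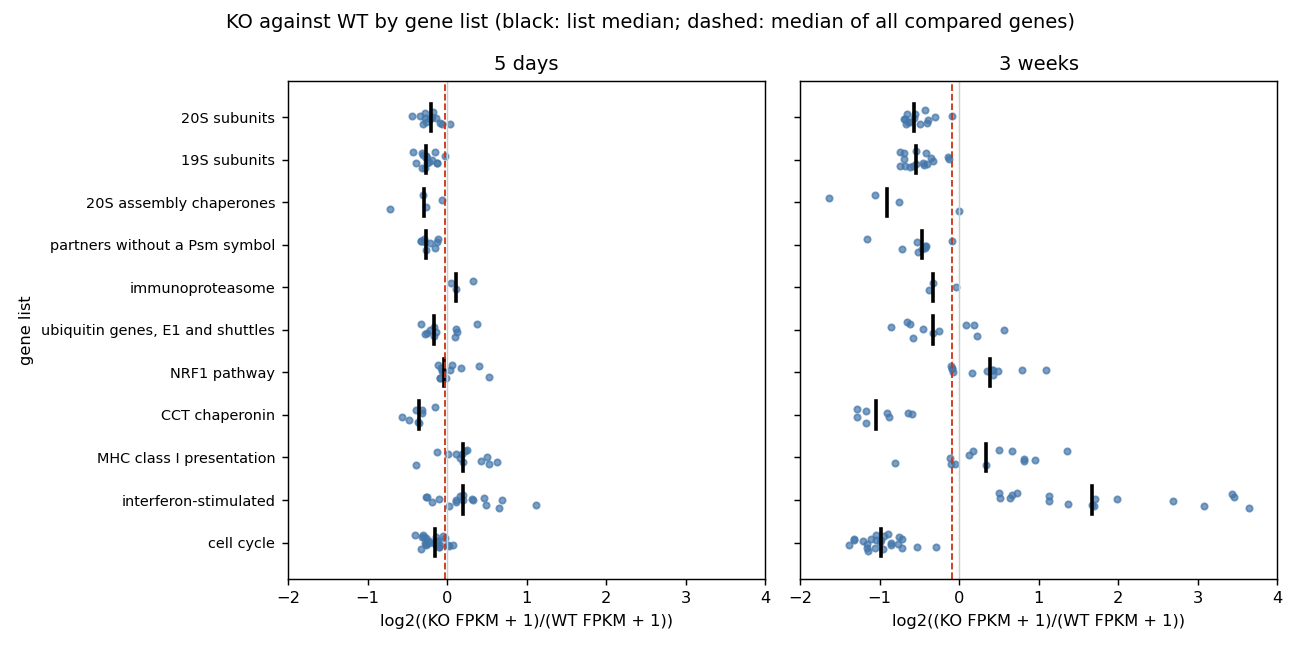
log2((KO FPKM + 1)/(WT FPKM + 1)) (horizontal axis) of each compared gene in 11 lists (vertical axis) at 5 days and 3 weeks, with the list median in black and the median of all compared genes dashed. At 3 weeks the 20S and 19S medians are -0.56 and -0.54, to the right of the CCT chaperonin at -1.04 and left of the dashed line at -0.08. Interferon-stimulated genes lie at 1.68, but some of them, such as Oasl1, passed the filter only through their KO 3-week values.

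Some values are less certain than others. A transcript of another gene matched the member's transcript at 95% identity or more over at least 50% of its length for 8 kept genes (Psma4, Psma5, Psmb3, Psmb5, Psmc1, Psmd2, Psmd11 and Psme2, the last with Psme2b), so the authors' counting could have split their reads. Exons of 10 kept genes overlap a gene on the other strand, among them Psma4, Psmb7, Psmc3, Psmd13 and Psme1. The library kit keeps strand, but the sources used here do not say whether the counting used it. Exons of 3 kept genes, Psmb5, Psmd1 and Psmg3, overlap a gene on the same strand, where strand cannot separate the reads.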

How the data were processed

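Libraries came from TRIzol RNA and the stranded TruSeq mRNA kit, per the labels' protocols. What the authors deposited is 1 FPKM value per symbol line. The unit is inferred from the values and from Cufflinks 2.0.2, which the submitters' processing notes name with Bowtie 0.12.8, TopHat 1.3.2 and mm10. The sources used here give no annotation, strand setting or filter.

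Files had 23746 lines each. Symbols on several lines (240, none of them a member) were summed, and 1 symbol with an unreadable cell was left out. Genes with a mean of at least 1 FPKM over the 4 libraries were compared as log2((a + 1)/(b + 1)), which understates differences of low genes. Percentages of WT use FPKM without the added 1.

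Depth was inferred from steps of low FPKM values in genes with 1 GENCODE M21 transcript, its length reduced by 200 bases: 59.8% to 62% of low values lay within 0.05 of whole reads, where even spread gives 10%. Implied reads use 1 transcript per gene, the longest principal one where tagged, and are approximate. The way of counting folds was tried on simulated Poisson counts with known changes. These hold no variation between cultures, so they are no check of the differences above. Sequence matches used BLAST 2.17.0, and tables pandas 2.3.3.

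Members and gene lists were chosen with earlier results of these data known. Values are named for the 5 highest and 5 lowest ratios at each time, members at least 2-fold apart, Psme, Psmf and Psmg genes, catalytic subunits, Psmd4, Psmd14 and the 3 highest and lowest means; other members may be named. Alternatives were pseudocounts of 0.1 and 5, 3 scalings, other filters, the highest line of a symbol, and symbols ending after the number.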

Additional observations from a re-analysis of the deposited data

How the results depend on the processing

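Medians of the members kept their direction in all 5 contrasts under the 9 alternatives. Upper-quartile scaling gave a median of -0.40 for KO against WT at 3 weeks, and 7 genes at least 1.5-fold lower in place of 17. It moved all genes alike, and their split at 1.5-fold at 3 weeks from 1696 higher and 2284 lower to 2066 higher and 1738 lower. For 3 weeks against 5 days in KO, 1 gene in place of 2 was at least 1.5-fold lower with a pseudocount of 5, with median-of-ratios scaling and with upper-quartile scaling. The other 154 values of these results stayed within 1.5 times the count, or within the counting interval of a typical member or ratio. Of the single-gene values 39 moved beyond their interval, 36 of them with upper-quartile scaling, and 751 did not. No paired analysis was possible because each group holds 1 library, and for the same reason no library could be left out. Depth limited Psmg3 and Psmg4 most.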
